A study of Caenorhabditis elegans with 6 samples.

Results

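This account concerns the heat-inducible chaperone genes of Caenorhabditis elegans in 6 small RNA libraries. The 8 inducible genes were the HSP70 genes hsp-70 (sequence name C12C8.1), F44E5.4 and F44E5.5, and the small heat shock genes hsp-16.1 (T27E4.8), hsp-16.2 (Y46H3A.3), hsp-16.11 (T27E4.2), hsp-16.41 (Y46H3A.2) and hsp-16.48 (T27E4.3). The constitutive HSP70 gene hsp-1 (F26D10.3) was set beside them, which gave 9 genes of 45510 in the tables, 20524 of them protein-coding. The genes were taken by name from those whose sense fragments stood out in these libraries, so they were chosen by the same sense counts that are described below, and these counts carry no independent evidence. All 9 were found in the tables.

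The libraries came from whole larvae at the L3 stage, 1 library per group, in a study of antisense siRNAs against ribosomal RNA. The mutant groups carried susi-2(ust49) or susi-3(ust51), and the control group carried neither. All 3 groups, the control included, had the eri-1(mg366) allele and the GFP::NRDE-3 fusion. The labels give 15 °C on OP50 bacteria for every sample and, for maintenance before the experiment, 20 °C, and they name no heat shock. Each genotype gave an NRDE-3 immunoprecipitate (IP, with an antibody against FLAG) and a total small RNA library, both of RNA of 17 to 30 nt. The labels do not say which gene each susi allele alters, how many strains or cultures were used, or which promoter drives the tagged protein, and no IP from animals without the tag was analysed here. Pools of many larvae were lysed, so fewer cells of a type and less RNA per cell cannot be told apart.

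In animals, misfolded protein releases the transcription factor HSF-1, which binds heat shock elements and switches on chaperone genes. HSP70 proteins bind exposed stretches of unfolded proteins and refold them in cycles of ATP hydrolysis with J-domain partners. HSP-16 proteins are small heat shock proteins of the alpha-crystallin family, which hold unfolded proteins without ATP. In C. elegans the hsp-16 genes and hsp-70 are almost silent without stress, and an hsp-16.2 promoter reporter is a common sensor of heat shock, whereas hsp-1 is expressed in unstressed animals. NRDE-3 is an Argonaute protein that carries siRNAs antisense to their targets into the nucleus. A count on the sense strand of a gene thus comes from a short piece of its transcript and a count on the other strand from an RNA complementary to it. Sense fragments are not a direct measure of mRNA level.

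The libraries held 9122066 to 10755494 counts. Levels are given as counts per 1000000 counts of a library (CPM): a single count equals 0.0930 to 0.110 CPM, and the limit that a count of 0 allows is 0.279 to 0.329 CPM (3 counts). Sense counts on protein-coding genes made up 20.1%, 23.7% and 25.5% of the IP libraries of susi-2, susi-3 and the control, and 16.8%, 13.8% and 11.1% of the total libraries in that order. Markers of later stages also differed between libraries. Summed sense counts on 6 vit genes, which encode yolk proteins of adults, were 7 in susi-2, 84 in susi-3 and 219 in control total RNA, and the microRNA let-7, which accumulates late in larval life, had 43872, 57826 and 103538 counts in those libraries. The larval timing microRNA lin-4 was instead lowest in the control, with 3906, 6340 and 2957 counts in the same order. Summed counts on 28 msp sperm genes were 3, 11 and 11, so the markers did not share 1 order. In the IP the vit sums were 613 in susi-2, 1582 in susi-3 and 4891 in the control. Their part in the results below was not tested. With 1 library per group there is no replicate check and no test: intervals are exact 95% intervals of counting error only, and PCR copies of 1 molecule make them too narrow.

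In total small RNA, sense fragments of all 8 inducible genes were higher in susi-3 than in the control by 15.9-fold to 28.1-fold, while hsp-1 was 1.77-fold higher. In susi-2 none of the 8 reached 2-fold. The 8 genes together had 786 CPM in susi-3 (7731 counts) against 42.1 CPM in the control (443 counts), a ratio of 18.6 (95% interval 16.9 to 20.6), and 62.6 CPM in susi-2 (656 counts), a ratio of 1.49 (1.32 to 1.68) to the same control library. The mutant libraries share this control, so each ratio below stands on it alone. Scaling by the trimmed mean of M values (TMM) put no change in susi-2 at a log2 CPM ratio of 0.57. The sum of the 8 genes was at 0.56, and F44E5.4 with F44E5.5 held 504 of its 656 counts in susi-2. No direction is therefore given for the sum in susi-2.

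**Figure D1:**
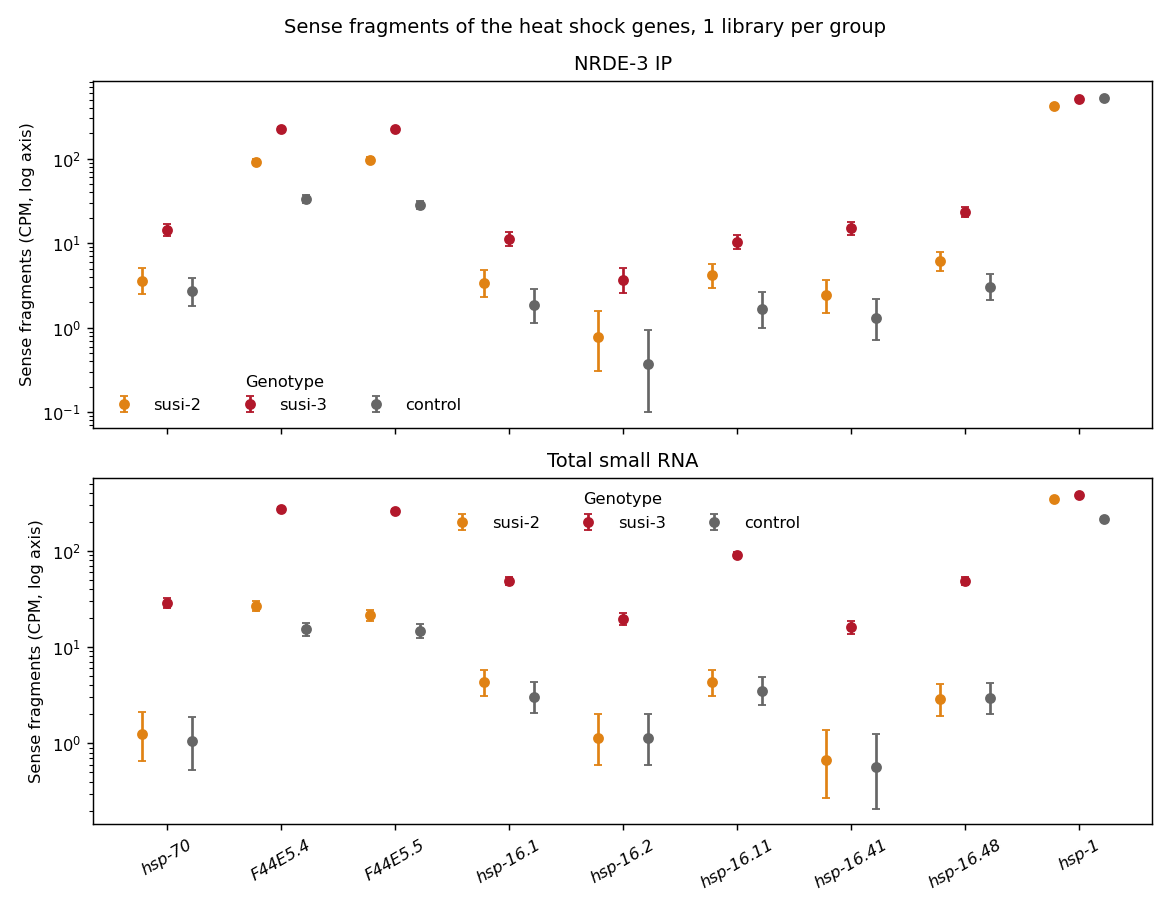
Sense fragments in CPM (log axis) of each gene in the NRDE-3 IP (upper panel) and in total small RNA (lower panel), with exact 95% Poisson intervals, 1 library per group. The susi-3 points of the 8 inducible genes lie above those of susi-2 and the control in both panels, and the 3 points of hsp-1 lie close together.

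Among the inducible HSP70 genes, hsp-70 had 13 sense counts in the total library of susi-2, 284 in susi-3 and 11 in the control. It was near the limit of detection in susi-2 and the control, and its ratio was 27.6 in susi-3 (15.2 to 55.9) and 1.19 in susi-2 (0.490 to 2.92). F44E5.4 had 280 counts in susi-2, 2688 in susi-3 and 160 in the control. F44E5.5, which lies next to F44E5.4 on chromosome II in the WBcel235 RefSeq annotation, had 224, 2571 and 154 counts in the same order. The ratios of F44E5.4 and F44E5.5 to the control were 17.9 (15.3 to 21.2) and 17.8 (15.2 to 21.1) in susi-3, and 1.76 (1.44 to 2.15) and 1.46 (1.18 to 1.80) in susi-2. These neighbours encode closely related HSP70 proteins, and the rule by which a read matching both was counted is not known. F44E5.4 took 48.6% to 55.6% of the pair's sense counts over the 6 libraries, so the pair may be read as 1 measurement.

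The small heat shock genes lie in clusters on chromosome V in the same annotation, T27E4.8, T27E4.3, T27E4.9 and T27E4.2 in a row and Y46H3A.3 beside Y46H3A.2. They are known as divergent pairs that share a promoter region, hsp-16.1 with hsp-16.48, hsp-16.49 with hsp-16.11, and hsp-16.2 with hsp-16.41. hsp-16.1 had 45 sense counts in the total library of susi-2, 475 in susi-3 and 32 in the control, and hsp-16.48 had 30, 476 and 31 in that order. hsp-16.11 had 45 counts in susi-2, 885 in susi-3 and 37 in the control. In each of these genes susi-2 and the control lay within 13 counts of each other and susi-3 stood far above both.

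The other promoter pair had fewer counts. hsp-16.2 had 12 counts in susi-2, 194 in susi-3 and 12 in the control, and hsp-16.41 had 7, 158 and 6. The ratios of susi-3 to the control were 15.9 (11.1 to 23.4) for hsp-16.1, 16.40 (11.4 to 24.4) for hsp-16.48, 25.5 (18.4 to 36.5) for hsp-16.11, 17.3 (9.66 to 34.0) for hsp-16.2 and 28.1 (12.64 to 77.8) for hsp-16.41. The 8 intervals of the inducible genes all contain the range between 18.4 and 21.1, so their ratios in susi-3 are not told apart by counting error. In susi-2 the 5 small heat shock genes together had 139 counts against 118 in the control, a ratio of 1.18 (0.919 to 1.52).

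hsp-16.49 (T27E4.9), a near-identical copy of hsp-16.48 that is not among the 9 genes, had 32 sense counts in susi-2, 454 in susi-3 and 36 in the control, a susi-3 ratio of 13.5 (9.58 to 19.5). hsp-16.1 and hsp-16.11 are likewise near-identical, so counts of single copies are uncertain. Summed, hsp-16.1 with hsp-16.11 had ratios of 1.31 (0.946 to 1.82) in susi-2 and 21.1 (16.52 to 27.2) in susi-3. hsp-16.48 with hsp-16.49 had 0.929 (0.647 to 1.33) in susi-2 and 14.8 (11.6 to 19.3) in susi-3. Within the first pair, hsp-16.1 had 34.9% (32.4% to 37.5%) of the pair's sense counts in susi-3 total RNA, against 44.9% to 52.6% in the other 5 libraries, with an interval apart from those of susi-2 total RNA and the susi-3 IP and overlapping the other 3.

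The constitutive hsp-1 had 3625 sense counts in the total library of susi-2, 3743 in susi-3 and 2260 in the control, ratios of 1.61 (1.53 to 1.70) and 1.77 (1.68 to 1.86). Both mutants were above the control, and the mutants differed from each other by a ratio of 0.910 (0.869 to 0.953), susi-2 over susi-3. On the log2 scale hsp-1 was at 0.68 in susi-2 and 0.82 in susi-3. The median log2 ratio over protein-coding genes, likewise computed as log2((CPM + 1)/(CPM + 1)), was 0.51 in susi-2 and 0.31 in susi-3. With TMM scaling, hsp-1 was at 0.12 in susi-2 and 0.43 in susi-3. hsf-1, the gene of the heat shock factor itself, had 50 counts in susi-2, 54 in susi-3 and 46 in the control, ratios of 1.09 (0.716 to 1.67) and 1.25 (0.830 to 1.90).

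**Figure D2:**
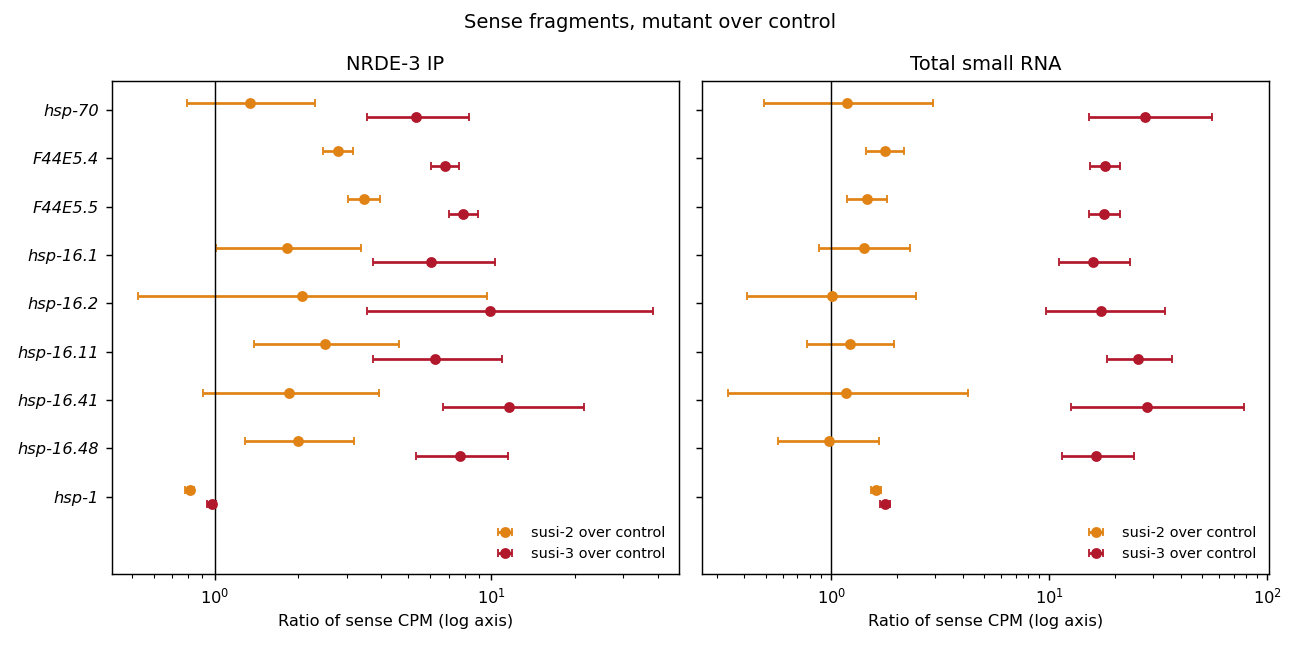
Ratio of sense CPM, mutant over control (log axis), in the NRDE-3 IP (left) and in total small RNA (right), with exact 95% intervals of counting error. In the IP the susi-3 ratios of the 8 inducible genes run from 5.34 to 11.6, and in total small RNA from 15.9 to 28.1.

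Set against all genes, a protein-coding gene with at least 50 counts over the 2 libraries was called at a log2 ratio of 1 or more, or −1 or less. In total RNA of susi-3 all 8 inducible genes passed the minimum and all 8 were called higher, where 10.6% of 6376 genes were. This is the contrast in which the set was seen, and nothing is read from the count. Over the 8 genes the median log2 ratio was 3.76, and over all genes tested 0.31. Listed from the highest log2((CPM + 1)/(CPM + 1)), which lowers the place of genes with few counts, the 8 genes and hsp-16.49 took 9 of the first 12 places, with hsp-16.11 in place 1 and hsp-16.2 in place 12, although the plain ratios of hsp-16.41 and hsp-70 were above that of hsp-16.11. The other 3, named after their values were seen, were srxa-8, K05F6.10 and F56A8.9, with 322, 627 and 689 counts in susi-3 against 8, 29 and 42 in the control. hsp-1 was in place 1080. Scaled by TMM, 269 genes were called higher and 318 lower, against 677 and 105 by CPM, and all 8 inducible genes were still called higher.

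In total RNA of susi-2, 5 of the 8 inducible genes passed the minimum and 0 were called, where 17.1% of 6699 genes were called higher and 2.02% lower. The median log2 ratio of the 5 was 0.39 and that of all genes tested 0.51. The 3 that did not pass, hsp-70, hsp-16.2 and hsp-16.41, had at most 13 counts in either library. Scaled by TMM, 299 genes were called higher and 354 lower, against 1143 and 135 by CPM. With that scaling F44E5.4 was at 0.24, F44E5.5 at −0.02, and hsp-16.1, hsp-16.11 and hsp-16.48 at −0.05, −0.22 and −0.45. No direction is therefore given in total RNA of susi-2 for the small heat shock genes, or for the F44E5 pair, which may be read as 1 measurement.

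**Figure D3:**
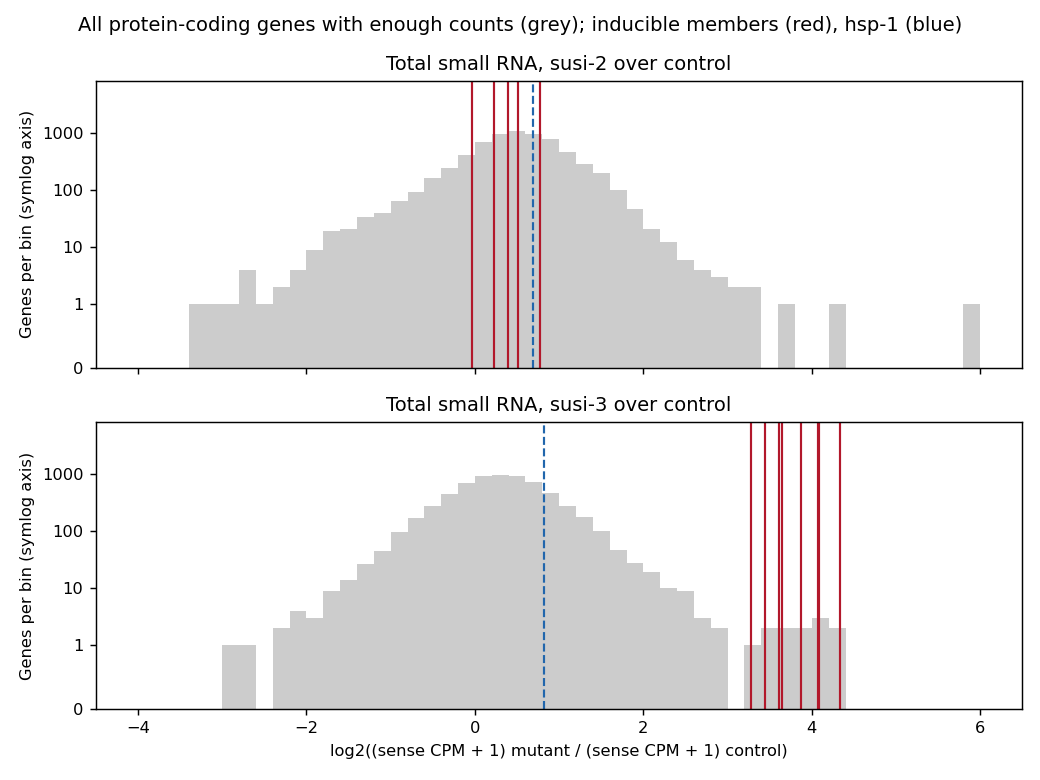
Numbers of protein-coding genes (symlog axis) by log2 ratio of sense CPM + 1, mutant over control, in total small RNA, for susi-2 (upper) and susi-3 (lower). Red lines mark the inducible genes that passed the count minimum and the dashed blue line hsp-1; in susi-3 the red lines lie between 3.27 and 4.33, and in susi-2 they lie within the bulk.

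Compared directly in total RNA, all 8 inducible genes were called lower in susi-2 than in susi-3, where 2.7% of 7005 genes were. Their sum had a ratio of 0.0798 (0.0735 to 0.0864), susi-2 over susi-3, which is 12.5-fold lower in susi-2. Single genes ran from 0.0416 (0.0165 to 0.0878) for hsp-16.41 to 0.0979 (0.0863 to 0.111) for F44E5.4. This contrast shares its susi-3 library with the one in which the set was seen. All but the F44E5 pair had at most 45 counts in susi-2 and passed the minimum only with their susi-3 counts. Nothing is read from the count of 8 called.

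In the NRDE-3 IP the 8 genes together were higher in both mutants than in the control, and their ratio in susi-3 was smaller than in total RNA. These genes were seen as a set in total RNA of susi-3, so their larger ratio there carries no independent evidence. Their sum was 210 CPM in susi-2 (1916 counts), 527 CPM in susi-3 (5007 counts) and 72.3 CPM in the control (778 counts). The ratios to the control were 2.90 (2.67 to 3.16) in susi-2 and 7.28 (6.75 to 7.86) in susi-3. hsp-1 differed from them, with 3887 counts in the IP of susi-2, 4871 in susi-3 and 5665 in the control, ratios of 0.809 (0.776 to 0.843) and 0.973 (0.936 to 1.01). Under TMM, hsp-1 in susi-2 was at a log2 ratio of 0.02, so its direction there turns with the scaling.

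In the IP of susi-3, F44E5.4 had 2142 counts and F44E5.5 2119, against 357 and 303 in the control, ratios of 6.79 (6.07 to 7.61) and 7.91 (7.01 to 8.95). hsp-70 had 137 counts in susi-3 against 29 in the control, a ratio of 5.34 (3.56 to 8.28). Among the small heat shock genes, hsp-16.41 had 143 counts in susi-3 against 14 in the control, a ratio of 11.6 (6.67 to 21.7), and hsp-16.48 had 225 against 33, a ratio of 7.71 (5.34 to 11.5). hsp-16.1, hsp-16.11 and hsp-16.2 had 107, 99 and 35 counts in susi-3 against 20, 18 and 4 in the control, ratios of 6.05, 6.22 and 9.90. All 8 intervals lay above 1, and all contained the range between 7.01 and 7.61. For 5 of the 8 genes the IP interval lay wholly below that of total RNA, and for hsp-16.2, hsp-16.41 and hsp-16.48 the intervals overlapped. The total RNA ratios are those in which the set was seen, so this order carries no independent evidence. In susi-3, TMM put no change at log2 CPM ratios of 0.39 in total RNA and −0.29 in the IP. The intervals are therefore compared by CPM only.

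Of the 8 genes, 7 passed the minimum in that comparison and all 7 were called higher, where 3.05% of 7956 genes were. hsp-16.2 was left out with 39 counts over both libraries. Of the 7, all but the F44E5 pair had at most 33 counts in the control and passed only with their susi-3 counts. Nothing is read from the count of 7 called. The median log2 ratio was 2.60 over the 7 and −0.33 over all genes tested, and the 7 held places between 49 and 101 from the highest. TMM scaling gave 312 genes higher and 217 lower, against 243 and 478 by CPM, with the same 7 of 7 members called.

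In the IP of susi-2, 840 counts on F44E5.4 and 889 on F44E5.5 stood against 357 and 303 in the control, ratios of 2.77 (2.45 to 3.15) and 3.46 (3.03 to 3.95). hsp-16.48 had 56 counts against 33, a ratio of 2.00 (1.28 to 3.18), and hsp-16.11 had 38 against 18, a ratio of 2.49 (1.39 to 4.63). hsp-16.1 had 31 against 20, hsp-16.41 22 against 14, hsp-16.2 7 against 4 and hsp-70 33 against 29. The interval lay above 1 for 5 of the 8 genes and included 1 for hsp-70, hsp-16.2 and hsp-16.41. Of 6 genes that passed the minimum, the F44E5 pair were called higher, where 3.76% of 8010 genes were. The median log2 ratio was 0.88 over the 6 and −0.50 over all genes tested. Under TMM, CPM of counts outside rRNA and CPM of protein-coding counts alike, hsp-16.11 and hsp-16.48 were called as well, 4 genes in all. TMM gave 472 genes higher and 562 lower, against 301 and 1269 by CPM.

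The direct comparison of mutant IPs gave 7 of 7 tested genes called lower in susi-2 than in susi-3, where 4.31% of 7234 genes were. Their sum over 8 genes had a ratio of 0.399 (0.378 to 0.420), susi-2 over susi-3. Singly, the ratios ran from 0.160 (0.0974 to 0.252) for hsp-16.41 to 0.437 (0.404 to 0.473) for F44E5.5. Of the 7, hsp-70, hsp-16.1, hsp-16.11 and hsp-16.41 had at most 38 counts in susi-2 and passed only with their susi-3 counts. Nothing is read from the count of 7 called. hsp-1 was at 0.832 (0.797 to 0.868), and hsf-1 at 0.987 (0.608 to 1.60). Against the control, hsf-1 had 36 counts in the IP of susi-2, 38 in susi-3 and 105 in the control, ratios of 0.404 (0.269 to 0.595) and 0.409 (0.275 to 0.599).

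Set against total RNA of the same genotype, the IP held the small heat shock genes unevenly. In susi-3, hsp-16.11 had 10.4 CPM in the IP against 89.9 CPM in total RNA, a ratio of 0.116 (0.0931 to 0.143). hsp-16.2 was at 0.187 (0.126 to 0.269) and hsp-16.1 at 0.233 (0.187 to 0.288), whereas hsp-16.48 was at 0.489 (0.416 to 0.575) and hsp-16.41 at 0.937 (0.742 to 1.18). The split of hsp-16.1, hsp-16.2 and hsp-16.11 below hsp-16.48 and hsp-16.41 was also seen in the other genotypes, though the order of the lower 3 values differed. In susi-2 the ratios were 0.969 for hsp-16.11, 0.670 for hsp-16.2 and 0.791 for hsp-16.1, against 2.14 for hsp-16.48 and 3.61 for hsp-16.41. In the control they were 0.475, 0.326 and 0.611, against 1.04 and 2.28. hsp-16.49 stood with hsp-16.48, at 2.40 in susi-2, 0.483 in susi-3 and 0.787 in the control.

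Within the promoter pairs this appears as a share that needs no scaling between libraries. hsp-16.41 had 75.9% (56.5% to 89.7%) of the counts of hsp-16.41 with hsp-16.2 in the IP of susi-2, against 36.8% (16.3% to 61.6%) in total RNA. In susi-3 its share was 80.3% (73.7% to 85.9%) in the IP against 44.9% (39.6% to 50.2%) in total RNA, and in the control 77.8% (52.4% to 93.6%) against 33.3% (13.3% to 59.01%). The susi-3 intervals lay apart, while those of susi-2 and the control overlapped. For hsp-16.48 with hsp-16.1, the share of hsp-16.48 was 64.4% in the IP of susi-2, 67.8% in susi-3 and 62.3% in the control, against 50.1% in susi-3, 49.2% in the control and 30 of 75 counts in susi-2 in total RNA. All 6 IP shares were above the total RNA share of the same genotype. The pattern was noticed in these counts and has no replicate.

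The HSP70 genes showed a difference between genotypes. F44E5.4 was at 3.44 (3.00 to 3.96), IP over total, in susi-2, at 0.825 (0.779 to 0.873) in susi-3 and at 2.18 (1.80 to 2.64) in the control. F44E5.5 was at 4.56 (3.93 to 5.30), 0.853 (0.805 to 0.904) and 1.92 (1.58 to 2.35). hsp-70 was at 2.91 (1.49 to 6.03) in susi-2, 0.499 (0.404 to 0.614) in susi-3 and 2.58 (1.25 to 5.72) in the control. In each of these genes susi-3 was the lowest of the 3 genotypes and lay below 1. The susi-3 ratio divides by the total library in which the set was seen, so this order carries no independent evidence. The side of 1 rests on the scaling: rRNA made up 64.6%, 64.9% and 58.4% of the IP libraries of susi-2, susi-3 and the control, against 37.5%, 31.7% and 33.2% of total RNA. With CPM of counts outside rRNA, the log2 ratios in susi-3 were 0.68 for F44E5.4, 0.73 for F44E5.5, 0.81 for hsp-16.41 and −0.04 for hsp-70. Under that scaling, TMM and CPM of protein-coding counts alike, susi-3 remained the lowest genotype for each of the 8 genes. hsp-1 was above 1 in all genotypes, at 1.23 (1.18 to 1.29) in susi-2, 1.35 (1.29 to 1.41) in susi-3 and 2.45 (2.33 to 2.57) in the control, but was at a log2 ratio of −0.34 in susi-3 with CPM of protein-coding sense counts.

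Read against all protein-coding genes, 4 of the 8 inducible genes were called lower in the IP than in total RNA of susi-3, where 15.0% of 7314 genes were, and 0 higher, where 32.6% were. Nothing is read from these susi-3 counts, since that total library is the one in which the set was seen. In susi-2, 2 of 5 tested genes, the F44E5 pair, were called higher, where 21.3% of 7505 genes were. In the control 1 of 5, F44E5.4, was called higher, where 50.9% of 7713 genes were. The median log2 ratio was 0.89 for the 5 genes in susi-2, −0.98 for the 8 in susi-3 and 0.04 for the 5 in the control, against −0.03, 0.36 and 1.03 for all genes tested. With CPM of protein-coding sense counts F44E5.4 in the control was at −0.07.

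**Figure D4:**
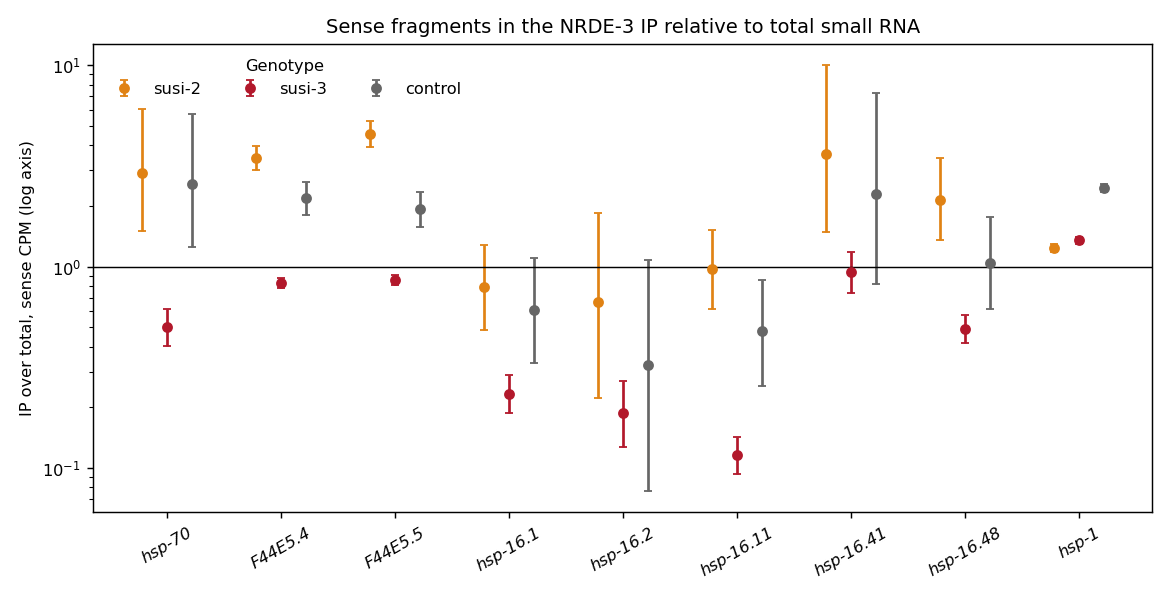
Ratio of sense CPM in the NRDE-3 IP to that in total small RNA (log axis) for each gene, in susi-2, susi-3 and the control, with exact 95% intervals of counting error. In every genotype the points of hsp-16.1, hsp-16.2 and hsp-16.11 lie below those of hsp-16.41 and hsp-16.48, and susi-3 is the lowest of the 3 genotypes for each of the 8 inducible genes. The susi-3 ratios divide by the total library in which the set was seen.

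Antisense counts on these genes were few in all 6 libraries. The 8 genes together had 13.045 antisense CPM in the IP of susi-2, 11.04 in susi-3 and 10.5 in the control, against 2.01, 6.30 and 7.80 CPM in total RNA. The IP sums of the mutants were 1.24 (0.952 to 1.62) and 1.05 (0.798 to 1.38) times that of the control. Antisense counts were 5.85% of all counts on the 8 genes in the IP of susi-2, 2.05% in susi-3 and 12.7% in the control, against 3.10%, 0.796% and 15.6% in total RNA.

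Most antisense counts in the IP fell on the F44E5 pair. F44E5.4 had 58 antisense counts in the IP of susi-2, 48 in susi-3 and 61 in the control, against 6, 19 and 10 in total RNA. F44E5.5 had 46, 45 and 47 in the IP against 8, 11 and 10 in total RNA. The IP held more than total RNA in each genotype, with ratios for F44E5.4 of 11.1 (4.80 to 31.5) in susi-2, 2.62 (1.51 to 4.71) in susi-3 and 5.96 (3.03 to 13.1) in the control. For F44E5.5 they were 6.60 (3.08 to 16.19), 4.24 (2.16 to 9.08) and 4.59 (2.29 to 10.2). Under the 3 other scalings the log2 ratios of both genes stayed between 1.41 and 2.85. Only these 2 inducible genes passed the antisense minimum, and both were called higher in the IP of each genotype. Over all genes tested 33.1% of 4751 were called higher in susi-2, 16.8% of 3423 in susi-3 and 546 of 4543 in the control. The pair had at most 19 counts in total RNA and passed only with its IP counts, so nothing is read from these calls. The median log2 ratio of the pair was 2.00 in susi-2, 1.24 in susi-3 and 1.62 in the control, against 0.05, −1.52 and −1.79 for all genes tested.

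For the antisense counts of the pair in the IP, the ratios to the control were 1.12 (0.769 to 1.63) and 1.15 (0.752 to 1.77) in susi-2 and 0.890 (0.597 to 1.32) and 1.08 (0.703 to 1.67) in susi-3. In susi-2 0 of the 2 were called higher, where 48.2% of 3847 genes were, and in susi-3 0 of 2, where 12.9% of 2375 were. TMM scaling gave 566 genes higher and 520 lower in susi-2, against 1853 and 156 by CPM, and 0 of the pair were called under it. The direction in susi-2 turned with the scaling: F44E5.4 and F44E5.5 were at log2 ratios of 0.14 and 0.17 by CPM, at −0.83 and −0.77 by TMM and at −0.55 and −0.49 by CPM of protein-coding antisense counts, so no direction is given. Over the same libraries the sense fragments of the pair were 3.09 (2.82 to 3.38) and 7.30 (6.73 to 7.94) times the control.

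**Figure D5:**
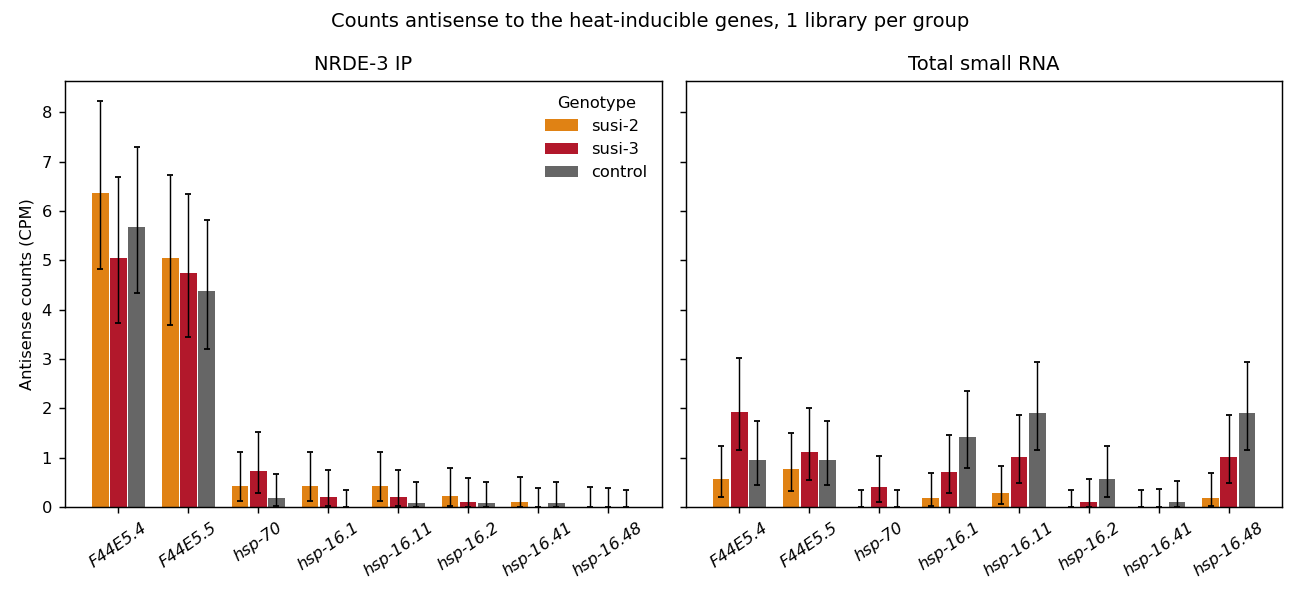
Antisense CPM on the 8 inducible genes in the NRDE-3 IP (left) and in total small RNA (right), with exact 95% Poisson intervals, 1 library per group. The F44E5 pair is at 4.37 to 6.36 CPM in the IP and at or below 1.93 CPM in total RNA, while hsp-16.1, hsp-16.11 and hsp-16.48 are highest in control total RNA.

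Counts antisense to the small heat shock genes were fewer in the IP than in total RNA of susi-3 and the control, but not of susi-2. The 5 genes together had 11 antisense counts in the IP of susi-2, 5 in susi-3 and 3 in the control, against 7, 28 and 62 in total RNA. The IP ratio to total was 1.80 (0.639 to 5.49) in susi-2, with an interval that includes 1, 0.185 (0.0557 to 0.485) in susi-3 and 0.0473 (0.00949 to 0.145) in the control. These are log2 ratios of 0.40, −1.33 and −2.43 with the pseudocount, against medians of 0.05, −1.52 and −1.79 for all genes tested. In susi-3, 2106 of 3423 genes were called lower, and in the control 3238 of 4543. The direction was thus that of most genes in both. hsp-16.48 had 0 antisense counts in all 3 IP libraries, against 2, 10 and 20 counts in total RNA of susi-2, susi-3 and the control. With its copy hsp-16.49 it had 1, 0 and 0 in the IP against 4, 15 and 33 in total RNA. By CPM, the pair's IP ratio to total had upper 95% limits of 0.289 in susi-3 and 0.116 in the control. TMM put no change of antisense counts there at log2 CPM ratios of −0.68 and −1.27.

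By CPM, total RNA of the mutants held fewer of these antisense counts than the control. The sum was at 0.113 (0.0438 to 0.248) of the control in susi-2 and at 0.482 (0.297 to 0.765) in susi-3. These are log2 ratios of −2.05 and −0.84 with the pseudocount. The sum was not rescaled, and TMM put no change at log2 CPM ratios of −0.57 in susi-2 and −0.51 in susi-3. The direction in susi-3 is therefore given for CPM only. hsp-16.1 had 2 antisense counts in susi-2, 7 in susi-3 and 15 in the control, and hsp-16.11 had 3, 10 and 20. hsp-16.2 had 0, 1 and 6. hsp-16.41, at 0, 0 and 1, had too few to compare. Antisense counts were 4.79% of all counts on the 5 genes in total RNA of susi-2, 1.26% in susi-3 and 34.4% in the control. By CPM the direction was also that of most protein-coding genes with enough antisense counts: 23.6% of 4588 were called lower in susi-2 and 20.4% of 4628 in susi-3, with medians of −0.61 and −0.62. Under TMM the medians were −0.12 and −0.17, and under CPM of protein-coding antisense counts 0.23 and −0.13. In susi-2 the direction over all genes thus turned with the scaling. None of the 8 genes reached 50 antisense counts over 2 total libraries singly.

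hsp-70 had 4 antisense counts in the IP of susi-2, 7 in susi-3 and 2 in the control, against 0, 4 and 0 in total RNA. hsp-1 had 90, 24 and 37 antisense counts in the IP and 168, 103 and 209 in total RNA. Its ratios to the control were 2.87 (1.94 to 4.33) in susi-2 and 0.734 (0.420 to 1.26) in susi-3 in the IP, and 0.807 (0.655 to 0.993) and 0.526 (0.412 to 0.670) in total RNA. In total RNA of susi-2 the direction turned with the scaling, from a log2 ratio of −0.29 by CPM to 0.25 by TMM and 0.64 by CPM of protein-coding antisense counts. hsp-1 lay below total RNA in the IP of each genotype, from 0.173 (0.119 to 0.246) in the control to 0.615 (0.471 to 0.799) in susi-2, where CPM of counts outside rRNA turned the direction, to a log2 ratio of 0.11. By CPM its log2 ratios were −0.65 in susi-2, −1.70 in susi-3 and −2.23 in the control. The medians of all genes tested were 0.05, −1.52 and −1.79 in that order.

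Other chaperone genes were read as lists, by CPM only, and no list call was recomputed under another scaling. In total RNA, TMM put no change of sense fragments at log2 CPM ratios of 0.57 in susi-2 and 0.39 in susi-3. In the IP it put it at −0.33 and −0.29. Calls close to the threshold therefore depend on the scaling. Of 11 other small heat shock genes, 4 were tested in total RNA of susi-3 and 3 were called higher, where 10.6% of all genes tested were: hsp-16.49 and, named after their values were seen, hsp-17 at 2.38 and hsp-43 at 2.58. hsp-25 was at 1.76, with 240 counts in susi-3 against 146 in the control. The log2 ratios of hsp-17 and hsp-43 were 1.15 and 1.23, so their calls depend on the scaling. The list's median log2 ratio was 1.19 there and 0.23 in susi-2, where 0 of 4 were called. In the IP, 5 were tested and 1, hsp-16.49, was called higher in both mutants. Over all genes tested there, 3.76% were called higher in susi-2 and 3.05% in susi-3. hsp-16.49 was at 2.72 (1.74 to 4.37) in susi-2 and 8.27 (5.59 to 12.7) in susi-3.

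Cytosolic chaperones and co-chaperones had 4 of 20 called higher in total RNA of susi-3, where 10.6% of all genes tested were, with a median log2 ratio of 0.79 against 0.31 for all genes. These were hsp-90, the HSP90 chaperone, at 2.11 (2503 counts in susi-3 against 1269 in the control) and, named after their values were seen, dnj-13, a J-domain partner of HSP70, at 3.31, unc-23, a BAG-domain protein, at 2.69, and hsp-110, a nucleotide exchange factor of HSP70, at 2.35. In susi-2, 3 of 19 were called higher, near the 17.1% of all genes tested, hsp-90 at 2.32, cdc-37, a kinase-specific partner of HSP90, at 2.75 and the chaperonin subunit cct-4 at 2.15, with a median of 0.74 against 0.51 for all genes. In the IP of susi-2, 2 of 19 tested were called lower, where 15.8% of all genes tested were, and these 2 calls depend on the scaling. In each mutant IP 1 of 19 was called higher, where 3.76% of all genes tested were in susi-2 and 3.05% in susi-3. This was sti-1, which bridges HSP70 and HSP90, with 2943 counts in susi-2, 5556 in susi-3 and 1705 in the control, ratios of 2.04 and 3.69. Its total RNA counts were 136, 143 and 81. In total RNA of susi-3 the log2 ratios of hsp-90, hsp-110 and unc-23 were 1.07, 1.22 and 1.35. Those of hsp-90, cdc-37 and cct-4 in susi-2 were 1.21, 1.14 and 1.07. These calls depend on the scaling.

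Of 14 endoplasmic reticulum genes 1 was called higher in total RNA of susi-2, hsp-4, the stress-induced BiP, at 2.95, and 0 in susi-3, where 17.1% and 10.6% of all genes tested were. The list's median was 0.38 in susi-2 and 0.09 in susi-3, against 0.51 and 0.31 for all genes. hsp-4 had 606 counts in susi-2, 385 in susi-3 and 206 in the control. Its log2 ratio in susi-2 was 1.515, so its call depends on the scaling. The most abundant of the list, crt-1 (calreticulin) and hsp-3 (constitutive BiP), were at 1.36 each in susi-2 and at 0.952 and 1.08 in susi-3. In the IP of susi-2, 7 of 14 were called lower, where 15.8% of 8010 genes were. These 7 lay between log2 ratios of −1.218 and −1.003, and TMM put no change at −0.33, so the calls depend on the scaling. Of 5 mitochondrial chaperone genes tested, 0 were called in total RNA of either mutant. Over all genes tested 17.1% were called higher in susi-2 and 10.6% in susi-3. hsp-60 was at 1.06 in susi-2 and 1.17 in susi-3, and hsp-6 at 1.36 and 1.55. The list's median log2 ratio was 0.08 in susi-2 and 0.41 in susi-3, below that of all genes in susi-2 and above it in susi-3. Of HSF-1 and its regulators 2 of 5 were tested, hsf-1 and its inhibitor hsb-1. In total RNA 0 of the 2 were called, beside the same shares of all genes. hsb-1 had 62 counts in susi-2, 40 in susi-3 and 32 in the control.

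Among genes induced by other stresses, 3 of 7 tested were called higher in total RNA of susi-2, where 17.1% of all genes were: the cadmium-responsive genes mtl-1, cdr-1 and mtl-2, at 18.4, 4.11 and 3.48. mtl-1 had 55 counts in susi-2, 6 in susi-3 and 3 in the control. mtl-2 was also at 2.10 (1.62 to 2.73) in susi-3, at a log2 ratio of 0.99 just under the threshold. In susi-3, 2 of 6 were called higher, where 10.6% of all genes were, both named after their values were seen: aip-1, which encodes an arsenite-inducible protein, at 7.48 with 84 counts against 12, and gst-4, a reporter gene of oxidative stress, at 2.41 with 368 against 163. In susi-2, aip-1 had 21 counts and gst-4 had 128. The log2 ratios of cdr-1 in susi-2 and gst-4 in susi-3 were 1.37 and 1.22, so these calls depend on the scaling. The difference between the mutants was not tested. The most abundant of the list, ctl-2 (a catalase) and gcs-1 (glutathione synthesis), were at 1.02 and 1.22 in susi-3 and 1.77 and 1.37 in susi-2.

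Finally, protein-coding genes with at least 50 sense counts in each of the 4 mutant-to-control comparisons (5394 genes, of which 6 were among the 9 described here and were left out of the order) were ordered by the Euclidean distance of their 4 log2 ratios from the median of the 8 inducible genes. The nearest of the rest was hsp-16.49, at a distance of 0.72, while the 8 inducible genes themselves lay between 0.36 for hsp-16.48 and 1.28 for F44E5.5. It was followed by R107.5 at 1.77, dpy-6 at 2.14, mua-6 at 2.36 and gst-10 at 2.40. hsp-1 was at 3.95. dpy-6 encodes a mucin-like protein of the cuticle, mua-6 an intermediate filament protein and gst-10 a glutathione S-transferase. The median log2 ratios of the 8 genes were 2.35 in the IP and 3.76 in total RNA of susi-3, and 0.72 and 0.18 in susi-2, against 1.59, 2.21, 1.13 and 0.17 for R107.5.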

How the data were processed

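Per the file headers, each deposited table gives the raw count of reads per transcript feature on the feature's strand and on the opposite strand. The submitters' processing notes name Bowtie2 as the aligner. Not given in the sources used here are its version, the build, the annotation and how multiply matching reads were treated. The 56377 features were summed to 45510 genes (hsp-16.2 and hsp-1 have 2 features each), 5 blank cells were taken as 0, and 3 features without a gene identifier (at most 122 counts per library) were omitted. Names came from the WBcel235 RefSeq table (44187 genes), a gene ID table (26) or the files' sequence names (1297). Because the build of the files is not known, no coordinates or lengths were used and levels are not compared between genes. No nucleotide or protein sequence of these genes was used here.

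CPM are counts per 1000000 counts of both strands. Ratios of CPM have exact conditional 95% intervals and shares have Clopper-Pearson intervals. Genes were called from log2((CPM + 1)/(CPM + 1)) at 2-fold or more with at least 50 counts over the 2 libraries. No test was made, as each group has 1 library. The calculation was tested on simulated data. Alternatives were TMM (edgeR 4.0.16, R 4.3.3), other totals, pseudocount, minimum, transcript choice and summed copies. Other steps used Python 3.11.15, numpy 2.4.6, pandas 2.3.3 and scipy 1.17.1.

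The members and lists were chosen with earlier results of these data known. Named genes are the 9 members, hsp-16.49 and hsf-1, the 2 most abundant of each list and its members at least 2-fold from the control in total RNA of susi-2 (at most 4), and the 5 nearest genes. Others are marked in the text. trap-1 was dropped from the mitochondrial list and daf-21, another name of hsp-90, from the cytosolic list once the symbols were matched, since in C. elegans trap-1 is a translocon gene.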

Additional observations from a re-analysis of the deposited data

Results flagged for a closer look

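Among members with at least 50 counts in both comparisons, values of 4 genes lay on opposite sides of 1, with 95% intervals of counting error that excluded 1 in both. The comparisons set side by side were the mutant-to-control ratios of IP and total RNA, those of susi-2 and susi-3, and IP over total between each pair of genotypes. hsp-70, IP over total, was at 0.499 in susi-3 and 2.58 in the control but had under 50 counts in the control. With 1 library per group the difference between the settings was not tested in any of them.

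Sense fragments of hsp-1 in susi-2 over the control were at 0.809 in the NRDE-3 IP and at 1.61 in total RNA. Scaled by TMM, the log2 ratios were 0.02 and 0.12, both above 0. Antisense counts on hsp-1 in susi-2 over the control were at 2.87 in the IP and at 0.807 in total RNA, while the medians of all protein-coding genes on that strand were at 0.96 and −0.61 on the log2 scale. Scaled by TMM, the log2 ratios of hsp-1 were 0.32 and 0.25, both above 0.

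For IP over total RNA, sense fragments of F44E5.4 were at 3.44 in susi-2, 0.825 in susi-3 and 2.18 in the control, and those of F44E5.5 at 4.56, 0.853 and 1.92. hsp-16.48 was at 2.14 in susi-2 and 0.489 in susi-3. Each susi-3 ratio divides by the total library in which the set was seen, so it carries no independent evidence. With CPM of counts outside rRNA, the F44E5 genes were above 1 in susi-3, at log2 ratios of 0.68 and 0.73, and hsp-16.48 was at −0.07. The medians of all protein-coding genes were −0.03 in susi-2, 0.36 in susi-3 and 1.03 in the control on the log2 scale.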

How the results depend on the processing

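No paired analysis was possible because each group has 1 library and the labels give no replicate numbers, and for the same reason no replicate could be left out. For each of 4 mutant-to-control comparisons and both strands, the number of the 8 inducible genes called higher was recomputed under 8 alternatives. Of the 8 counts 5 were 0 by the main rule, and in total RNA no gene had enough antisense counts, so these say little of stability. With a minimum of 10 counts, 3 of 5 genes tested were called lower for antisense counts in total RNA of susi-2, where 1395 of 8444 genes were. With no minimum 3 of 7 were, where 1395 of 14814 genes were. The 3 were hsp-16.1, its near-identical copy hsp-16.11, and hsp-16.48. They had at most 3 counts in susi-2 and passed the minimum of 10 only with their control counts, so nothing is read from these calls. The 3 counts that moved by over 1.5 times were for sense fragments in the IP of susi-2, where 2 genes became 4 under TMM, under CPM of counts outside rRNA and under CPM of protein-coding counts on the strand. With near-identical copies summed into 6 units, 6 of 6 were called higher in total RNA and 5 of 5 tested in the IP of susi-3. Over the alternatives the log2 ratios of the 8 genes stayed between 2.59 and 4.66 in total RNA and between 1.35 and 3.43 in the IP of susi-3. For single genes 141 of 510 recomputed log2 ratios left the counting interval of the main value, 129 of them under another scaling of the libraries. One called value changed sign: F44E5.4, IP over total in the control, was at −0.068 with CPM of protein-coding sense counts, against 1.08. The cause was not tested. Antisense values of single small heat shock genes are limited by their counts, at most 20 per library.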
